A study of Homo sapiens with 6 samples.

Results

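The replication-independent histone variants studied here are 9 genes, taken by their symbols from the 60623 genes of the count table: *H1FX*, *H2AFJ*, *H2AFZ*, *H2AFX*, *H2AFY*, *H2AFY2*, *H2AFV*, *H3F3A*, and *H3F3B*. Expression had been profiled by RNA-Seq in TC28a2 cells, an immortalized human chondrocyte line, after 24 hours with mocetinostat at 2 μM, or with DMSO, its solvent. Each condition had 3 samples, which the study describes as independent experiments, and both conditions used the same single line. Mocetinostat inhibits class I histone deacetylases (HDACs), the enzymes that remove acetyl groups from histones.

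Histones package DNA into nucleosomes, and most of the histone pool is made from replication-dependent genes that are transcribed during DNA synthesis and whose mRNAs end in a stem-loop instead of a poly(A) tail. Replacement variants are encoded by separate genes whose mRNAs are mostly polyadenylated, so that they can be made and exchanged into chromatin outside DNA synthesis. *H2AFX* is a mixed case, because it can produce both kinds of mRNA. Replacement variants are known for marking promoters, DNA breaks, and silenced regions, and for accumulating in cells that divide slowly. The libraries were made from total RNA, so that mRNAs with and without a poly(A) tail could both be counted.

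The 6 libraries held from 1619344 to 11031132 counts, with medians of 6926619 for DMSO and 2417199 for mocetinostat, so that low genes were measured less precisely after mocetinostat treatment. All 9 genes passed the expression filter, with at least 15 counts in every sample. Levels are given as CPM, the count of a gene relative to the TMM-scaled library total, a scaling that centers most genes on no change. Of 13 chondrocyte markers, 10 were tested. At an adjusted p under 0.05 in edgeR 8 rose and none fell, beside 32.9% higher among all genes tested. The summed level of the 13 was between 127 and 148 CPM with DMSO and between 271 and 313 CPM with mocetinostat. *SOX9*, the chondrocyte transcription factor, held 106 ± 13.6 CPM with DMSO, most of that sum, and 180 ± 14.4 CPM with mocetinostat (SD, n = 3). *COL2A1*, the type II collagen gene, held only 2.20 ± 0.683 CPM with DMSO and 28.7 ± 7.54 CPM with mocetinostat (SD, n = 3). Of 9 markers of other cell types, 4 were tested and rose, *CDH1*, *EPCAM*, *VWF*, and *PECAM1*. The summed level of the 9 was between 3.44 and 7.50 CPM with DMSO and between 48.5 and 57.0 CPM with mocetinostat, and *PTPRC*, *CD68*, and *ADIPOQ* were below 1 CPM on average in both conditions. Their part in the results was not tested.

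Mocetinostat treatment split the variants into a group of 3 that rose and a group of 6 that fell. The linker histone gene *H1FX* rose together with the H2A variant genes *H2AFJ* and *H2AFV*. The genes *H2AFZ*, *H2AFX*, *H2AFY*, *H2AFY2*, *H3F3A*, and *H3F3B* fell on the TMM scale. Under GAPDH scaling 2 of these 6 fell, *H2AFZ* and *H2AFY2*, while *H2AFX* and *H3F3A* were at -0.039 and *H2AFY* and *H3F3B* turned slightly positive, all 4 without passing the test. All 9 had an adjusted p under 0.05 by the quasi-likelihood method of edgeR, with Benjamini-Hochberg adjustment over the 13966 genes tested. In the background of all genes tested, 32.9% were higher and 31.4% were lower at this threshold, 64.3% in all. The median absolute log2 fold change was 0.57 for the 9 genes and 0.59 for all genes tested, so that the variants changed about as much as the median gene. The study's threshold also asks for an absolute log2 fold change over 1. By that threshold 0 of the 9 genes were upregulated, against 20.2% of all genes tested, and 1 of the 9, *H2AFY2*, was downregulated, against 8.18%. Under GAPDH scaling 2 were upregulated and 0 downregulated by it, and without a filter on low genes 1 of the 9 was higher at an adjusted p under 0.05. The shares of all genes given here are on the TMM scale with the filter. For none of the 9 genes did the CPM ranges of the conditions overlap, with 3 genes higher and 6 lower. Of all genes tested, 66.5% did not overlap, 33.7% higher and 32.8% lower. No source used here says which samples came from the same experiment. In these bulk samples, less RNA per cell and fewer cells with the RNA cannot be told apart.

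**Figure D1:**
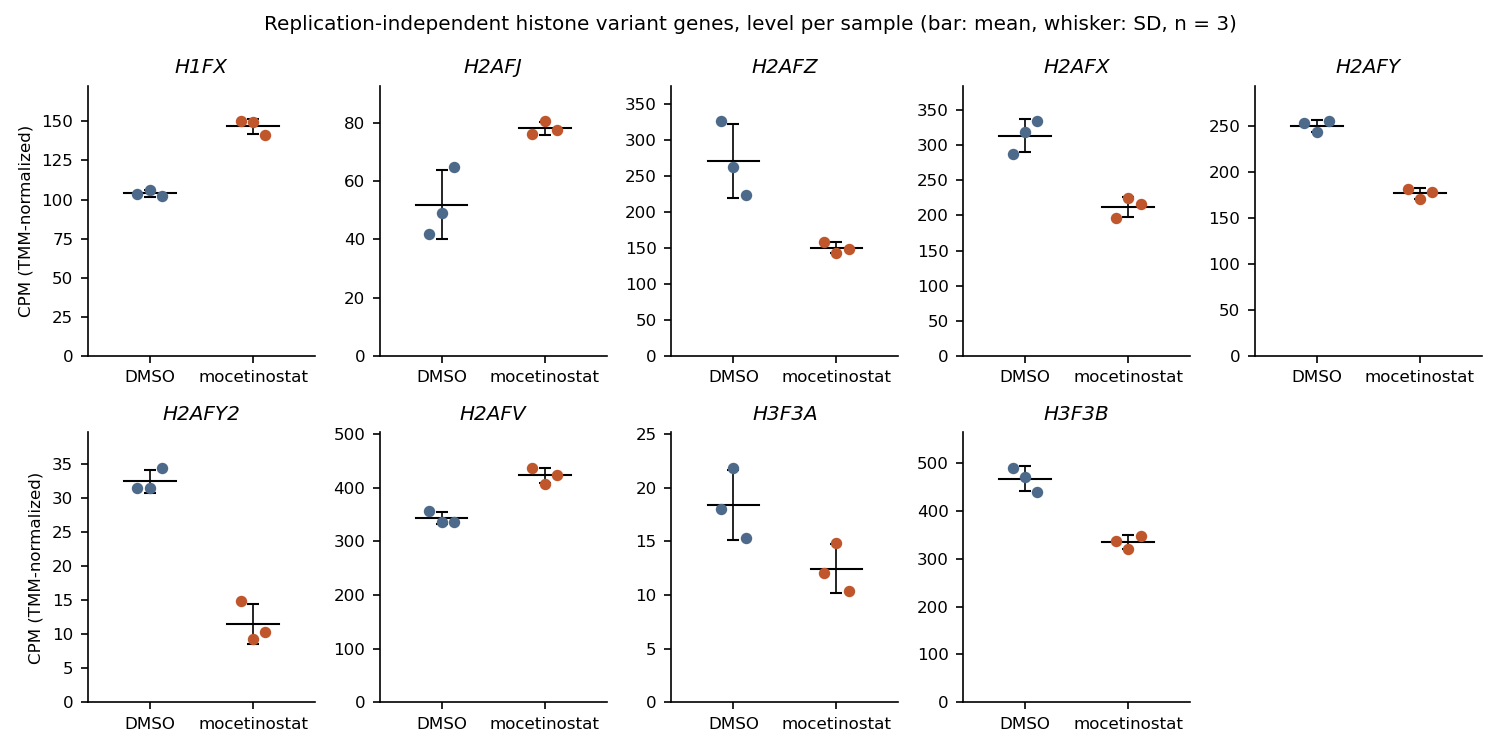
Level of each variant gene in each sample, in TMM-normalized CPM on linear axes that start at 0. Points are samples, bars are means, and whiskers are SDs (n = 3). The 3 genes *H1FX*, *H2AFJ*, and *H2AFV* lie higher in every mocetinostat sample than in every DMSO sample, and the other 6 lie lower on this scale, where GAPDH scaling would turn *H2AFY* and *H3F3B* slightly positive.

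The 4 H2A variant promoters shown here belong to the H2A variant pairs whose members moved in opposite directions on the TMM scale, *H2AFZ* with *H2AFV* and *H2AFX* with *H2AFJ*. Each is the 250 bases before the RefSeq start site (GRCh38.p14), written 5′ to 3′ on the strand of the gene. Capitals mark matches on either strand to CCAAT, the box bound by the factor NF-Y, to TATAAA, the TATA box, and to TTTGAA, the core of an element found in promoters of cell cycle genes. A match on the opposite strand reads ATTGG for CCAAT and TTCAAA for TTTGAA. None of these marked matches overlap each other. *H2AFZ* lies at chr4:99950276-99950525 on the minus strand, *H2AFX* at chr11:119095466-119095715 on the minus strand, *H2AFV* at chr7:44848088-44848337 on the minus strand, and *H2AFJ* at chr12:14774155-14774404 on the plus strand.
H2AFZ: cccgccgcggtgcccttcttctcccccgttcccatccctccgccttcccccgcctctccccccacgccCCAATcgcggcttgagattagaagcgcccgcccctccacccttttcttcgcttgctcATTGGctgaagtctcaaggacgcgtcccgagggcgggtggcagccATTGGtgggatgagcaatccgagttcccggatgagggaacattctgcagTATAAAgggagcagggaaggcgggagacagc
H2AFX: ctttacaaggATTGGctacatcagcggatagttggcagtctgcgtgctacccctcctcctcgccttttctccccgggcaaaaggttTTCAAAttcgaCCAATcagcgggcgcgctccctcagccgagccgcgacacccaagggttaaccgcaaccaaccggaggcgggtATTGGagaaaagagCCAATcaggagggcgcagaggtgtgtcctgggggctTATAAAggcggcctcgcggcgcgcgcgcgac
H2AFV: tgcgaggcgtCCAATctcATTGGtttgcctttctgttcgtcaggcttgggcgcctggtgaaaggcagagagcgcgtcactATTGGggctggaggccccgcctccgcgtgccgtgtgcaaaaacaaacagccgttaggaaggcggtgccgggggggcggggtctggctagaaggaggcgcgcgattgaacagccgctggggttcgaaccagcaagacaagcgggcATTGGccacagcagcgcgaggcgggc
H2AFJ: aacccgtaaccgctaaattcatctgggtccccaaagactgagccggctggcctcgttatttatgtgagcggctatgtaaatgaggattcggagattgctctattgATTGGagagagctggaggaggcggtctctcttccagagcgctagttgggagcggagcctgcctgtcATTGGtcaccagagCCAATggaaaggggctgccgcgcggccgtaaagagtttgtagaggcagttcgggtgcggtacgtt

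The promoters of *H2AFZ* and *H2AFX* each held TATAAA beginning 31 bases before the start site, and those of *H2AFV* and *H2AFJ* held no such letters in this window. These 4 genes were chosen for their opposite directions on the TMM scale, and *H2AFX* did not pass the test under GAPDH scaling. CCAAT was present in all 4, with 3 matches for *H2AFZ* and *H2AFJ* and 4 for *H2AFX* and *H2AFV*. TTTGAA was found only for *H2AFX* among them, once, 164 bases before the start. Entries existed for all 9 genes, with 13 windows in all because *H3F3A* and *H2AFY* have several start sites. CCAAT was present for 7 of the 9 genes, or in 9 of their 13 windows, and in 32.0% of the 35116 promoter windows of all genes. TATAAA was present for 4 of the 9, or in 4 of their 13 windows, and in 10.7% of all windows. The other genes with TATAAA were *H1FX*, which rose, and *H3F3B*, which fell except under GAPDH scaling, so that the box was not limited to one direction. TTTGAA was present in 1 of the 13 windows and in 13.3% of all windows. These matches describe letters and not bound sites.

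The linker histone gene rose. Linker histones of the H1 class bind the DNA between nucleosomes. *H1FX*, which encodes H1.10 (ENSG00000184897, a single exon on chromosome 3 of GRCh38 from 129314771 to 129316286), held 103, 106, and 102 CPM in DMSO replicates 1 to 3 against 150.1, 149, and 141 CPM with mocetinostat. The samples of each condition lay close together and the conditions did not overlap. Its log2 fold change was 0.50 ± 0.10 (SE; edgeR quasi-likelihood, Benjamini-Hochberg adjusted p = 7.19e-06). Without a filter on low genes it was 0.25 and did not pass (edgeR adjusted p = 0.0625). An annotated antisense gene covers 22.8% of the exon of *H1FX*, but it held at most 34 counts in any sample against at least 241 for *H1FX*.

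The *H2AFZ* and *H2AFV* genes encode H2A.Z.1 and H2A.Z.2, closely related forms of H2A.Z, which occupies nucleosomes beside active and poised start sites. They moved in opposite directions. *H2AFZ* (ENSG00000164032, chromosome 4 from 99948086 to 99950355) held 326, 263, and 224 CPM in the DMSO samples (replicates 1 to 3 in turn) against 159, 143, and 149 CPM in those given mocetinostat. The DMSO samples were spread over a wide range, with a coefficient of variation of 19.1% against 5.31% with mocetinostat, but even the lowest lay above the mocetinostat samples. Its log2 fold change was -0.85 ± 0.10 (SE; edgeR adjusted p = 3.98e-12), and -0.31 under GAPDH scaling (adjusted p = 0.011). *H2AFV* (ENSG00000105968, chromosome 7 from 44826791 to 44848087) held 357, 337, and 336 CPM with DMSO against 437, 408, and 424 CPM with mocetinostat. This was the smallest change of the 9 on the TMM scale, a log2 fold change of 0.30 ± 0.08 (SE; edgeR adjusted p = 0.000355), whereas under GAPDH scaling it was 0.83. The value was 0.05 when genes were not filtered, where *H2AFV* no longer passed the test (edgeR adjusted p = 0.662). Summed over both genes on the TMM scale, H2A.Z mRNA was 614 ± 62.6 CPM with DMSO and 573 ± 22.7 CPM with mocetinostat (SD, n = 3), and the sums of the conditions overlapped.

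The ratio of *H2AFZ* to *H2AFV* counts does not depend on how libraries are scaled. Its log2 value was -0.13, -0.35, and -0.59 in the DMSO samples (replicates 1 to 3 in turn) against -1.46, -1.51, and -1.50 in those given mocetinostat. Relative to *H2AFV*, *H2AFZ* was therefore 2.19-fold lower after treatment, a difference of -1.13 in the mean log2 ratio with a pooled SD of 0.16. The 3 mocetinostat ratios were below the 3 DMSO ratios, which gave an exact two-sided permutation p of 0.1, the smallest that 3 samples against 3 can give, and 0.133 after Benjamini-Hochberg adjustment over 4 pairs.

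*H2AFX* encodes H2A.X, the variant whose phosphorylated form marks DNA double-strand breaks. *H2AFX* (ENSG00000188486, a single exon on chromosome 11 from 119093874 to 119095465) held 288, 318, and 334 CPM in the DMSO samples (replicates 1 to 3 in turn) against 197, 224, and 217 CPM in those given mocetinostat. Every mocetinostat sample was lower than every DMSO sample. Its log2 fold change was -0.57 ± 0.08 (SE; edgeR adjusted p = 1.58e-08), and under GAPDH scaling it was -0.039 (adjusted p = 0.735). *H2AFJ* encodes H2A.J, a variant reported to accumulate in senescent cells. It lies on chromosome 12 from 14774405 to 14778002 (ENSG00000246705) and held 41.8, 49.1, and 64.8 CPM with DMSO against 76.1, 80.6, and 77.5 CPM with mocetinostat. Like *H2AFZ*, *H2AFJ* varied among the DMSO samples, with a coefficient of variation of 22.7% against 2.91% with mocetinostat, but DMSO replicate 1 was the lowest for *H2AFJ* and the highest for *H2AFZ*. The corresponding log2 fold change was 0.59 ± 0.13 (SE; edgeR adjusted p = 5.98e-05), and 0.34 without a filter on low genes (edgeR adjusted p = 0.0314). The log2 ratio of *H2AFX* to *H2AFJ* went from 2.61 ± 0.220 to 1.44 ± 0.063 (SD, n = 3) without overlap, so that *H2AFX* was 2.25-fold lower relative to *H2AFJ*. The exact two-sided permutation p was again 0.1, and 0.133 after adjustment over the 4 pairs.

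The macroH2A genes fell on the TMM scale, and under GAPDH scaling only *H2AFY2* of the pair fell. MacroH2A carries a large additional domain beyond its histone part and is known from silenced chromatin, such as the inactive X chromosome. *H2AFY2*, which encodes macroH2A2 (ENSG00000099284, chromosome 10 from 70052544 to 70112282), held 348, 151, and 234 counts in the DMSO samples (replicates 1 to 3 in turn) against 75, 15, and 25 counts in those given mocetinostat. In CPM these were 31.5, 31.4, and 34.5 with DMSO against 14.9, 9.30, and 10.4 with mocetinostat. The DMSO samples lay close together, and all were far above the highest mocetinostat sample. *H2AFY2* was 2.64-fold lower, with a log2 fold change of -1.40 ± 0.20 (SE; edgeR adjusted p = 2.91e-09), the largest change among the 9 on the TMM scale. Under GAPDH scaling it was -0.86, smaller in size than the changes of *H2AFJ* and *H1FX*. Exons of *AIFM2*, transcribed from the other strand, share 6.58% of the exon bases of *H2AFY2*. *AIFM2* held 423, 206, and 311 counts with DMSO against 191, 57, and 91 with mocetinostat, and the sources used here do not say whether counting used strand, so that some of the reads could belong to either gene.

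*H2AFY*, which encodes macroH2A1 (ENSG00000113648, chromosome 5 from 135334381 to 135399914), was the more abundant of the pair. It held 253, 243, and 255 CPM in the DMSO samples (replicates 1 to 3 in turn) against 181, 170.4, and 179 CPM in those given mocetinostat. The decrease was smaller than that of *H2AFY2*, with a log2 fold change of -0.50 ± 0.09 (SE; edgeR adjusted p = 5.34e-07), which became 0.032 under GAPDH scaling (adjusted p = 0.787). Gene counts do not separate the splice forms of macroH2A1. The log2 ratio of *H2AFY* to *H2AFY2* was 2.95 ± 0.059 with DMSO and 3.94 ± 0.301 with mocetinostat (SD, n = 3), without overlap (exact two-sided permutation p of 0.1, adjusted p = 0.133). In TMM-scaled CPM the sum over both genes, most of which is *H2AFY*, was 283 ± 7.71 CPM with DMSO and 188 ± 8.20 CPM with mocetinostat (SD, n = 3), or 66.5% of the DMSO level.

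*H3F3A* and *H3F3B* encode the same H3.3 protein, the variant deposited at active genes and at telomeric repeats. *H3F3B* (ENSG00000132475, chromosome 17 from 75776434 to 75785893) had the highest count of the 9 genes with DMSO, and *H2AFV* had the highest with mocetinostat. It held 490, 471, and 438 CPM in the DMSO samples (replicates 1 to 3 in turn) against 337, 319, and 348 CPM in those given mocetinostat, with no overlap. This gave a log2 fold change of -0.48 ± 0.08 (SE; edgeR adjusted p = 1.15e-07), and 0.054 under GAPDH scaling (adjusted p = 0.604). *H3F3A* (ENSG00000163041, chromosome 1 from 226061851 to 226072019) held only 199, 105, and 104 counts with DMSO against 61, 24, and 25 with mocetinostat. In CPM these were 18.0, 21.9, and 15.3 with DMSO against 12.1, 14.9, and 10.4 with mocetinostat, so that the highest mocetinostat sample lay just under the lowest DMSO sample. The log2 fold change of this gene was -0.58 ± 0.22 (SE; edgeR adjusted p = 0.0188).

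Most of the *H3F3A* mRNA cannot be told apart from other places in the genome by reads of this length. Of the 971 windows of 100 bases in its canonical transcript, 859, or 88.5%, occurred letter for letter elsewhere in GRCh38, in places annotated as H3.3 pseudogenes, within other annotated genes such as *MGST2*, and in unannotated sequence. For *H3F3B* the share was 1.34%, for *H2AFV* it was 1.95%, and for the other 6 genes it was 0%. How reads with several matches were treated is not given in the sources used here. The 6 rows for numbered *H3F3A* pseudogenes held 42 counts in all, against 518 for *H3F3A* itself. The call of *H3F3A* was also the least stable among the variants. The adjusted p of *H3F3A* from edgeR was 0.0795 without DMSO replicate 2, 0.0689 without mocetinostat replicate 1, and 0.0736 without mocetinostat replicate 3. It was 0.13 in edgeR after libraries were thinned to the smallest total and 0.1 with DESeq2. In these fits the log2 fold change of *H3F3A* stayed between -0.61 and -0.48. Under GAPDH scaling its log2 fold change was -0.039 (edgeR adjusted p = 0.889). The log2 ratio of *H3F3A* to *H3F3B* was -4.67 ± 0.219 with DMSO and -4.74 ± 0.326 with mocetinostat (SD, n = 3), and the conditions overlapped (exact two-sided permutation p = 0.8). The difference of -0.07 in this ratio was smaller than the spread between replicates.

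**Figure D2:**
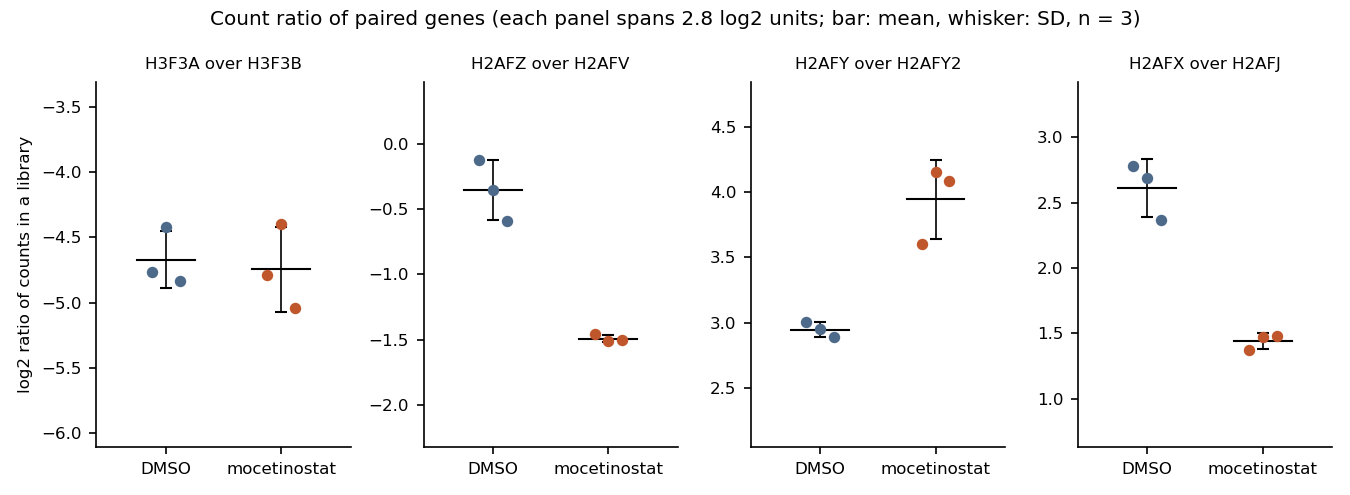
Log2 ratio of the counts of paired variant genes in each library, which no scaling between libraries can change. Points are samples, bars are means, and whiskers are SDs (n = 3). The ratios of *H2AFZ* to *H2AFV* and of *H2AFX* to *H2AFJ* differed by -1.13 and -1.17, mocetinostat minus DMSO, the ratio of *H2AFY* to *H2AFY2* by 1.00, and that of *H3F3A* to *H3F3B* overlapped between conditions.

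Of the 4 pairs compared, 3 thus separated the conditions completely, although none could pass a threshold of 0.05 with 3 samples per condition. For *H2AFZ* with *H2AFV* and for *H2AFX* with *H2AFJ* the separation adds nothing to the single genes. It followed from members that moved in opposite directions without overlap. No share over other gene pairs is given.

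The scaling decided part of the picture. When *GAPDH* counts set the scale of the libraries, the log2 fold changes of all genes tested shifted upward by a median of 0.54. The scale then rests on a single gene, and the shift means that *GAPDH* itself was lower with mocetinostat on the TMM scale. A variant near no change under GAPDH scaling thus fell about as much as *GAPDH* on the TMM scale. Which scale is closer to the RNA per cell was not tested. The log2 fold changes under GAPDH scaling were 1.12 for *H2AFJ*, 1.03 for *H1FX*, and 0.83 for *H2AFV*. They were -0.86 for *H2AFY2* and -0.31 for *H2AFZ*, both still past the test, and between -0.039 and 0.054 for *H2AFX*, *H3F3A*, *H2AFY*, and *H3F3B*. Thus 3 genes rose under TMM and under GAPDH scaling, 2 fell under both, and 4 fell under TMM scaling alone of the pair.

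**Figure D3:**
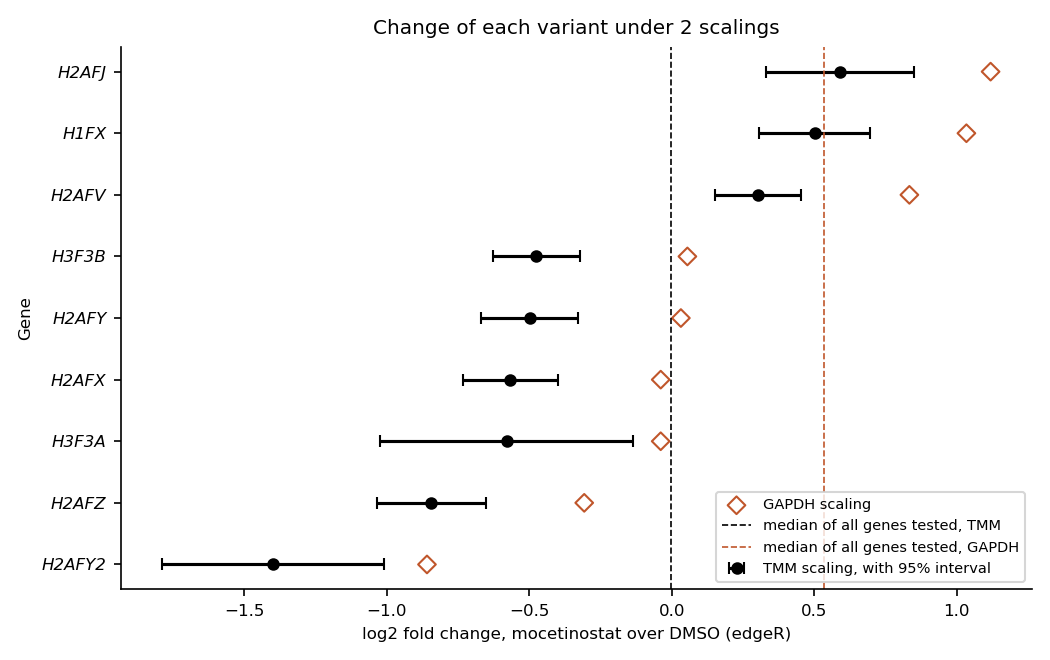
Log2 fold change of each variant gene, mocetinostat over DMSO, from edgeR. Black points are TMM-scaled values with 95% intervals, open diamonds are values after scaling to GAPDH, and dashed lines mark the median of all genes tested. With GAPDH scaling *H2AFX*, *H3F3A*, *H2AFY*, and *H3F3B* sit between -0.039 and 0.054, with *H2AFY* and *H3F3B* on the positive side.

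To compare the genes with each other, levels were divided by the length of the canonical mRNA. With DMSO, *H2AFZ* was the highest at 313 ± 59.7 CPM per kb, followed by *H2AFX* at 197 ± 14.8, *H3F3B* at 172 ± 9.60, *H2AFY* at 131 ± 3.36, and *H2AFV* at 113 ± 3.84 CPM per kb (SD, n = 3). *H2AFJ* and *H1FX* followed at 83.8 ± 19.0 and 68.5 ± 1.35 CPM per kb, and *H3F3A* and *H2AFY2* were far lower at 17.2 ± 3.07 and 16.8 ± 0.903 CPM per kb (SD, n = 3). The level and place of *H3F3A* are uncertain, since most of its windows occur elsewhere in the genome and its level would be too low if reads with several matches were dropped. The DMSO samples of neighbours in this order overlapped for *H2AFX* and *H3F3B*, for *H2AFJ* and *H1FX*, and for *H3F3A* and *H2AFY2*. With mocetinostat, *H2AFZ* was still highest at 174 ± 9.23 CPM per kb, and *H2AFV* moved from place 5 to place 2 at 139.8 ± 4.89 CPM per kb (SD, n = 3). The mocetinostat samples of *H2AFV* overlapped those of *H2AFX* in place 3, and neighbours also overlapped for *H2AFX* and *H2AFJ*, for *H2AFJ* and *H3F3B*, and for *H1FX* and *H2AFY*. The order rests on the transcript chosen. For *H2AFZ* the canonical mRNA has 866 bases and all annotated exons together 2270, for *H2AFY* 1917 and 17013, and only for *H1FX* and *H2AFX* are these lengths equal.

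Beside the replication-dependent genes, the variants made up a larger share of the H2A and H3 classes in every mocetinostat sample than in every DMSO sample. The count table holds 31 genes with the symbols of replication-dependent H2A and H3 genes, and 21 of them were tested. The 31 include *HIST1H2AA* and *HIST3H3*, which are also among the other replacement or testis histone genes below. Each of these held at most 1 count in any sample. All 21 fell at an adjusted p under 0.05 in edgeR, beside 31.4% lower among all genes tested on the TMM scale. The median log2 fold change was -2.24 for 11 H2A genes and -1.92 for 10 H3 genes. Under GAPDH scaling all 21 also fell (median log2 fold change -1.62), and no share of all genes is given for that scaling. The decreases ranged from *HIST2H2AB* at -2.97 to *HIST1H3I* at -1.25. Summed over the class, the replication-dependent H2A genes held from 1638 to 1804 CPM with DMSO and from 333 to 405 CPM with mocetinostat.

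The share of each class that came from the variants was calculated within each library from counts per kb of mRNA, so that scaling between libraries does not enter. In the H2A class, the 6 variants made up 21.1%, 20.1%, and 18.6% in DMSO replicates 1 to 3 against 49.9%, 44.5%, and 47.5% with mocetinostat. Here a mean of 19.9% ± 1.28 became one of 47.3% ± 2.71 (SD, n = 3), while the summed level of these 6 variants was 83.3% of the DMSO level in TMM-scaled CPM. In the H3 class, *H3F3A* and *H3F3B* made up 6.91%, 7.64%, and 6.67% with DMSO against 18.4%, 16.0%, and 16.8% with mocetinostat, and the mean went from 7.07% ± 0.509 to 17.0% ± 1.21 (SD, n = 3). The H3.3 share was thus higher in every mocetinostat sample, although the summed H3.3 level was 71.6% of the DMSO level in TMM-scaled CPM. The replication-dependent H3 genes held from 1166 to 1325 CPM with DMSO and from 299 to 343 CPM with mocetinostat. In both classes the conditions did not overlap, and each exact two-sided permutation p was 0.1, the smallest possible, also after adjustment over the 2 classes. The H2A share rests on 14 of 16 replication-dependent genes, those with a matched length. The levels of these shares depend on the lengths used. Without division by length the mean share with DMSO and with mocetinostat was 42.7% and 74.1% for H2A and 28.1% and 51.5% for H3, and with all annotated exons as length it was 10.8% and 29.3% for H2A and 3.39% and 8.68% for H3. The H3 share carries the same uncertainty through *H3F3A*. Reads may also be split or lost among replication-dependent genes with near-identical sequences.

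**Figure D4:**
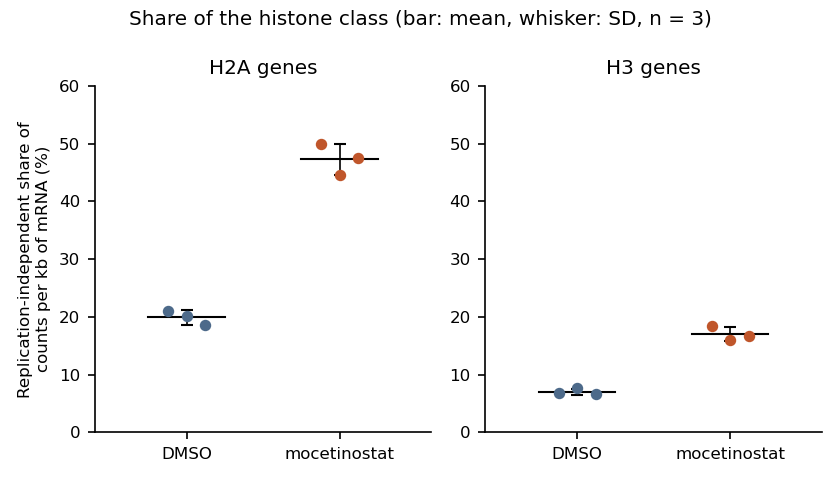
Percentage of the counts per kb of mRNA in each histone class that came from the replication-independent variants, by sample, on axes from 0 to 60%. Points are samples, bars are means, and whiskers are SDs (n = 3). The mean share with DMSO and with mocetinostat was 19.9% and 47.3% in the H2A class and 7.07% and 17.0% in the H3 class.

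Among 13 other replacement or testis histone genes, 1 was tested. *CENPA*, which encodes the variant of the centromere, fell from 29.5 ± 1.59 to 11.5 ± 3.47 CPM (SD, n = 3), which is a log2 fold change of -1.44 ± 0.21 (SE; edgeR adjusted p = 6.24e-09). Of the remaining 12, 6 held 0 counts in every sample, and *H3F3C*, a close relative of *H3F3B*, held at most 6 counts in any sample.

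Genes that act on histones and genes of S phase were taken as 6 lists with 86 genes. On the TMM scale 58 of them fell and 4 rose at an adjusted p under 0.05 in edgeR's test. Among all genes tested on that scale, 31.4% were lower and 32.9% higher. Under GAPDH scaling 17 of the 86 fell and 31 rose. There the log2 fold changes of all genes tested shifted upward by a median of 0.54. No share of all genes is given under GAPDH scaling, so its list counts cannot be set against the shares above. The list for H2A.Z, which holds the SRCAP, p400/TIP60, and INO80 remodelers and the chaperone ANP32E, had 18 of 20 genes lower, none higher, and a median log2 fold change of -0.58. *ANP32E*, which removes H2A.Z from chromatin, went from 156 ± 12.3 to 52.5 ± 4.76 CPM (SD, n = 3), which is a log2 fold change of -1.55 (edgeR adjusted p = 1.23e-20). *EPC1* and *EPC2*, scaffold subunits of the p400/TIP60 complex, had log2 fold changes of -2.54 and -1.32, and the bromodomain subunit *BRD8* one of -1.12. *YEATS4*, a reader of acetylated histones in the same complexes, was the highest of the list at -0.13 and did not pass the test. Under GAPDH scaling 6 of the 20 were lower and 4 were higher.

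Among all genes tested on the TMM scale, 31.4% were lower and 32.9% higher. In the list for H3.3 deposition, 4 of 8 genes fell and none rose, with a median log2 fold change of -0.31. *DEK*, a chromatin protein that binds H3.3, was the lowest at -0.98, and *CABIN1*, a subunit of the HIRA complex, the highest at 0.14 without passing the test. *HIRA* itself went from 23.9 ± 5.18 to 13.8 ± 1.44 CPM (SD, n = 3). Of 15 genes that act with H2A.X in the response to DNA breaks, 7 fell and 1 rose. Without a filter 11 were lower and 0 higher. In that setting the log2 fold changes of the genes of the main test shifted by a median of -0.25, and no share of all genes is given. *NBN*, a subunit of the complex that senses breaks, fell from 119.9 ± 12.7 to 51.4 ± 9.42 CPM (SD, n = 3), which is a log2 fold change of -1.18, and *RNF168*, a ubiquitin ligase that acts on H2A and H2A.X, rose with one of 0.46. Of 11 general histone chaperones, 9 fell and none rose. *SET*, a chaperone that also shields histones from acetylation, had a log2 fold change of -1.27, *IPO4*, a histone importer, one of -1.31 at a mean of 3.29 CPM with DMSO, and *NAP1L1* one of -0.10 that did not pass the test. Under GAPDH scaling the counts lower and higher were 1 and 3 for H3.3 deposition, 1 and 6 for H2A.X, and 5 and 4 for the chaperones. All genes tested shifted upward by a median of 0.54 under that scaling, and no share of all genes is given for it.

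Of 12 genes that supply histones during replication, 4 fell and 2 rose, beside the 31.4% lower and 32.9% higher among all genes tested. With DESeq2 or after thinning 2 were lower and without a filter 7, and 1 was higher with DESeq2, without a filter, without DMSO replicate 2, and without mocetinostat replicate 1. *ASF1B*, a chaperone of newly made H3 and H4, rose from 36.0 ± 4.13 to 89.6 ± 5.79 CPM (SD, n = 3), which is a log2 fold change of 1.30 (edgeR adjusted p = 1.39e-14). *SLBP*, which binds the stem-loop of replication-dependent histone mRNAs, had a log2 fold change of 0.29, and *LSM11*, which processes their ends, had the lowest of the list at -0.85. Under GAPDH scaling 8 of the 12 were higher and 0 were lower. All genes tested shifted upward by a median of 0.54 under that scaling, and the shares of all genes above are on the TMM scale only. Among 20 S-phase genes, 16 fell and 1 rose on the TMM scale, against 4 lower and 6 higher under GAPDH scaling and 10 lower after libraries were thinned to the smallest total. *RRM1* and *POLE2*, which act in nucleotide and DNA synthesis, had log2 fold changes of -1.36 and -1.20, and *CDC6*, which licenses replication origins, had the highest at 0.73. The summed S-phase level was between 3702 and 3825 CPM with DMSO and between 2706 and 2806 CPM with mocetinostat, and its part in the changes of the histone genes was not tested.

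**Figure D5:**
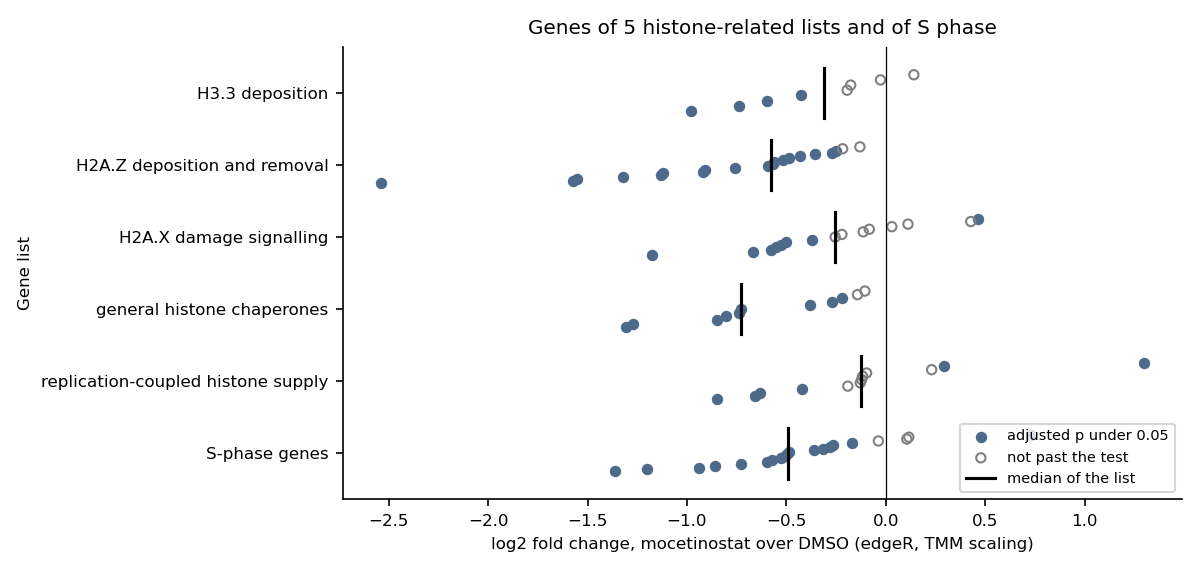
Log2 fold change, mocetinostat over DMSO, of genes in 5 lists that act on histones and in 1 list of S-phase genes, from edgeR on the TMM scale. Filled points passed an adjusted p of 0.05, open points did not, and black lines mark the median of each list. Of these genes 58 fell and 4 rose on this scale. Under GAPDH scaling, which shifted all genes tested upward by a median of 0.54, 17 fell and 31 rose.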

How the data were processed

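RNA-Seq libraries of TC28a2 cells treated with DMSO or mocetinostat (3 samples each) were made by the authors from total RNA. Per the labels and the study's methods, reads of 100 bases were aligned to GRCh38 with STAR 2.6.1d and assigned to genes with featureCounts 1.6.4. The deposited values are raw counts per gene, not normalized. Whether counting used strand and how multi-mapping reads were treated are not given in the sources used here.

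Genes were kept by filterByExpr with a minimum count of 10, scaled by TMM, and compared with the quasi-likelihood test of edgeR 4.0.16 (limma 3.58.1, R 4.3.3), fitted to all 13966 genes kept, with Benjamini-Hochberg adjustment and a threshold of 0.05. The biological coefficient of variation was 9.30%. The study's own threshold adds an absolute log2 fold change over 1. The authors used DESeq2 1.20.0, and DESeq2 1.42.0 served as an alternative here. Groups came from the treatment in the labels. Library totals ranged from 1619344 to 11031132 counts, so that a gene is measured more precisely in the deeper libraries.

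Gene pairs were compared as log2 ratios of counts plus 0.5, and class shares as counts per kb of canonical mRNA (GENCODE 44), both by exact two-sided permutation tests over samples (Python 3.11.15, scipy 1.17.1). Unless stated otherwise, an adjusted p for a gene is from edgeR. Genes named from the lists were up to 4 of the smallest p among those past the study's threshold and the highest and lowest of each list, and further genes were chosen after their values were seen. 1 further variant gene, with its pair and its class share, and 1 marker are not reported here. The 9 genes and the gene lists were chosen with earlier results of these data known. The gene test was tested on simulated counts with known fold changes. Alternatives were other scalings (RLE, library size, GAPDH), no filter or a stricter one, thinning, a replicate block, and leaving out each sample.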

Additional observations from a re-analysis of the deposited data

How the results depend on the processing

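Over 14 alternatives for each of the 9 genes, 115 results kept their direction and their side of the threshold, 9 no longer passed, and 2 reversed. The reversals were *H2AFY* (0.032) and *H3F3B* (0.054) under GAPDH scaling, where the counts of variants were 3 higher, 2 lower, 2 upregulated, and 0 downregulated by the study's threshold. Without a filter, where log2 fold changes of the genes of the main test shifted by a median of -0.25, they were 1 higher and 2 downregulated. For the 86 genes of the 6 lists, GAPDH scaling gave 31 higher, 17 lower, 2 upregulated, and 3 downregulated, and no filter gave 2 higher and 20 downregulated. Shares of all genes are given for the main setting only, so counts under other settings have no such share beside them. *H3F3A* kept its call under 8 of 14 alternatives.

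The mean share of variants differed by 27.4 and 9.98 percentage points for H2A and H3. Without division by length these were 31.4 and 23.4. With all annotated exons as length, an alternative chosen after seeing the data, they were 18.5 for H2A and 5.29 for H3, and without *H3F3A*, also chosen then, the H3 value was 9.35. The log2 ratio of *H3F3A* to *H3F3B* differed by between -0.24 and 0.079 when single samples were left out. With a replicate block the variants stayed at 3 higher and 6 lower. The paired exact permutation p of each share was 0.25, the smallest that 3 pairs can give. Samples with the same number did not deviate together (r of 0.01, 0.01, and -0.02). This cannot tell whether they came from the same experiment. The low counts of *H3F3A* and *H2AFY2* after treatment limit their precision, and a single line and 3 samples per condition limit every test.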
